A study of Mus musculus with 6 samples.

Results

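The 10 genes described here encode core proteins of non-homologous end joining and of the 53BP1, RIF1 and shieldin axis that feeds breaks into it. They are Xrcc5, Xrcc6, Xrcc4, Lig4, Nhej1, Shld1, Shld2, Shld3, Rif1 and Trp53bp1. They were chosen by symbol from the 55401 gene rows of the deposited count table, 1 row each, and all 10 passed the filter on low counts that left 17573 genes. The list was drawn up with earlier results of the same comparison known, so its fold changes and calls are given as a description, and nothing about the list as a whole is supported by them. The libraries hold RNA labelled with 4-thiouridine (4sU), a uridine analogue that cells build into RNA while it is present, so newly made transcripts weigh more than in total RNA. The 129/Ola mouse embryonic stem cells were grown in serum with leukemia inhibitory factor. In 3 libraries cells had received indole-3-acetic acid (IAA) for 5 h, with a genotype label that names ZFP207 degradation, and 3 control libraries at 0 h carry the genotype label WT. Per the titles and the treatment protocol, both groups were taken to be ZFP207AID cells, in which an auxin-inducible degron lets IAA send the zinc finger protein ZFP207 to the proteasome. If the controls were untagged cells, each comparison would also be one between lines. The sources used here do not say whether the line is 1 clone. Cells without a degron but with IAA were not analysed here, and an effect of IAA itself cannot be told apart from that of ZFP207 loss.

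In non-homologous end joining, the Ku heterodimer of Ku80 (Xrcc5) and Ku70 (Xrcc6) rings a broken DNA end and recruits the kinase DNA-PKcs (Prkdc). XRCC4, DNA ligase IV (Lig4) and XLF (Nhej1) then align and seal the ends. 53BP1 (Trp53bp1) gathers on chromatin beside a break and brings RIF1, which brings shieldin, a complex of SHLD1, SHLD2, SHLD3 and REV7 (Mad2l2) that limits resection of the end and so favours joining over recombination.

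The 6 libraries held 14336811 to 25916628 counts. Zfp207 RNA stood at 695, 1467 and 596 CPM (read counts scaled by TMM to a common library total) in IAA replicates 1 to 3, against 545, 1116 and 548 CPM in control replicates 1 to 3. The log2 fold change of Zfp207 RNA (IAA over control) was 0.32 without pairing (edgeR adjusted p = 0.823). With libraries paired by replicate number it was 0.29 (edgeR adjusted p = 0.0196). A degron removes protein, so this RNA does not check the depletion. All 8 embryonic stem cell markers were present, with a summed level of 4213 to 4783 CPM after IAA and 3923 to 4469 CPM in controls. Of 6 fibroblast markers, Col3a1 and Postn were at 0 in all libraries and the sum was 2.99 to 5.69 CPM after IAA and 6.05 to 10.9 CPM in controls. The sums of 6 primitive endoderm markers were 7.89 to 9.07 CPM after IAA and 4.04 to 8.40 CPM in controls. Those of 6 trophoblast markers were 115 to 146 CPM after IAA and 97.8 to 124 CPM in controls, nearly all from Tfap2c, which stem cells also express, with Cdx2 and Elf5 at 0. The part of these markers in the results was not tested. In such bulk libraries, fewer cells that express a gene and less RNA per cell cannot be told apart.

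After 5 h of IAA, RNA of Shld2, for the shieldin subunit that binds single-stranded DNA, fell 3.08-fold. RNA of the Ku80 gene Xrcc5 fell 2.17-fold, and both values are relative to the other genes. The other 8 genes did not pass the test in the fit without pairing. Shld3, whose product links shieldin to RIF1, was higher in all 3 IAA libraries than in all 3 controls, and passed only when libraries were paired by replicate number. The Ku70, ligase IV, RIF1 and 53BP1 genes had log2 fold changes (IAA over control) between -0.11 and 0.06. Thus 2 of the 10 genes were called lower and 0 higher by edgeR's quasi-likelihood test (Benjamini-Hochberg adjusted p under 0.05 over all 17573 genes), where 0.780% of all genes were called lower and 0.0114% higher, with 3 of the 10 at an unadjusted p under 0.05 (10.9% of all genes). DESeq2 also called 2 lower and 0 higher, against 3.29% and 0.353% of all genes. With the replicate number as a block in edgeR, 2 were lower and 1 higher, against 7.90% and 4.96% of all genes. The calls of Shld2 and Xrcc5 without the block were lost when any 1 of the 6 libraries was left out (edgeR adjusted p between 0.0521 and 0.153), and with the block they held without any 1 pair (at most 0.00198). The 10 genes had a median log2 fold change of -0.29, and all tested genes one of 0.02. Of the 10, 4 lay lower in every IAA library than in any control, against 11.8% of all tested genes, and 1 lay higher, against 6.94%. Within the pairs, 5 were lower after IAA in all 3 (24.1% of all genes) and 1 was higher in all 3 (24.2%).

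**Figure D1:**
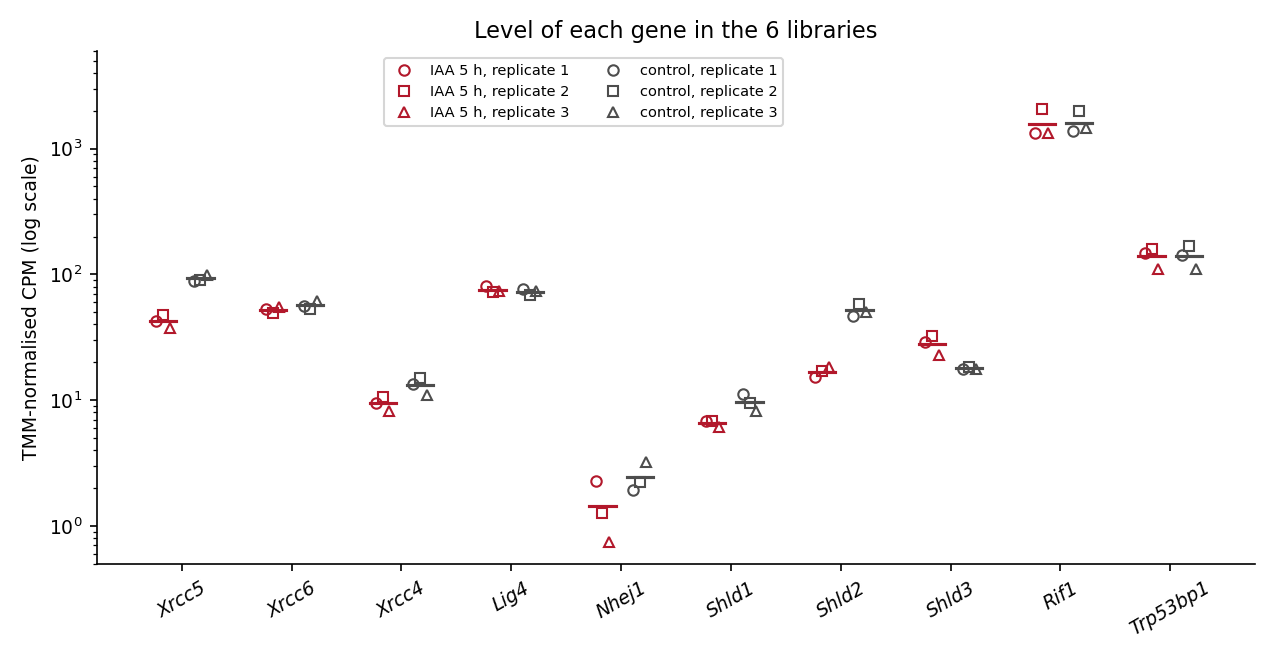
TMM-normalised CPM (log axis) of the 10 genes in each library, with IAA 5 h in red on the left and control in grey on the right of each gene, marker shapes for replicate numbers and bars for means of 3 libraries. The IAA and control points of Xrcc5, Xrcc4, Shld1, Shld2 and Shld3 do not overlap, and Rif1 is high in replicate 2 of both groups.

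The Ku genes differed from each other. Xrcc5 (chromosome 1, 72307417 to 72394953, mm10) stood at 42.9, 47.8 and 37.8 CPM in IAA replicates 1 to 3, against 88.7, 90.8 and 99.6 CPM in control replicates 1 to 3. The IAA libraries lay close together, and the highest of them was far below the lowest control. The mean was 42.8 ± 5.02 CPM after IAA and 93.0 ± 5.74 CPM in controls (SD, n = 3 each), a log2 fold change of -1.12 (SE 0.15, edgeR adjusted p = 0.0300, or 7.4e-05 with the block). Xrcc6 (chromosome 15, 81987833 to 82040085) stood at 53.3, 49.4 and 55.0 CPM after IAA, against 56.2, 52.6 and 61.0 CPM in controls. The Xrcc6 groups overlapped, and its log2 fold change was -0.11, with a 95% interval of -0.45 to 0.23 (edgeR adjusted p = 0.855). The interval of Xrcc6 does not reach the value of Xrcc5. The RefSeq interval of Xrcc6 holds all of Desi1, a gene for a SUMO peptidase of the DESI family (log2 fold change -0.15), and reads of the 2 may have been divided in ways the table does not show. An annotated Xrcc6 start at 82016369 lies past the end of Desi1 at 82016258, so the overlap depends on the start used.

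The ratio of Xrcc5 to Xrcc6 counts within a library needs no scaling between libraries. It was 0.806, 0.969 and 0.686 after IAA, against 1.58, 1.73 and 1.63 in controls. Its size depends on the lengths of both transcripts, so only its change between libraries is read, and the mean was 0.820 ± 0.142 after IAA and 1.65 ± 0.0761 in controls (SD, n = 3 each). The balance of newly made RNA for the 2 Ku subunits therefore lay lower in each IAA library than in any control.

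The 3 genes of the ligation step passed the test in neither fit. Lig4, for the ligase itself (chromosome 8, 9970020 to 9977680), stood at 81.0, 72.9 and 73.2 CPM after IAA, against 76.3, 68.8 and 73.4 CPM in controls, with overlapping groups. Its log2 fold change was 0.06 (95% interval -0.26 to 0.37). Xrcc4, for the ligase's scaffold (chromosome 13, 89848914 to 90089608), stood at 9.51, 10.6 and 8.26 CPM after IAA, against 13.4, 15.1 and 11.0 CPM in controls. The IAA libraries of Xrcc4 all lay below the controls, the 3 pairs gave log2 ratios of -0.49, -0.50 and -0.41, and the log2 fold change of -0.47 was not called (SE 0.25, edgeR adjusted p = 0.547, or 0.140 with the block). Nhej1, for the end-bridging factor XLF (chromosome 1, 74967346 to 75125226), rested on 51, 28 and 11 counts after IAA and 51, 39 and 60 counts in controls. The lowest of these, 11 counts in IAA replicate 3, has an exact Poisson 95% interval of 5.49 to 19.7 for counting error only. At this depth the ratio of IAA to control for Nhej1 had a 95% interval of 0.249 to 1.38, too wide to give a direction.

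**Figure D2:**
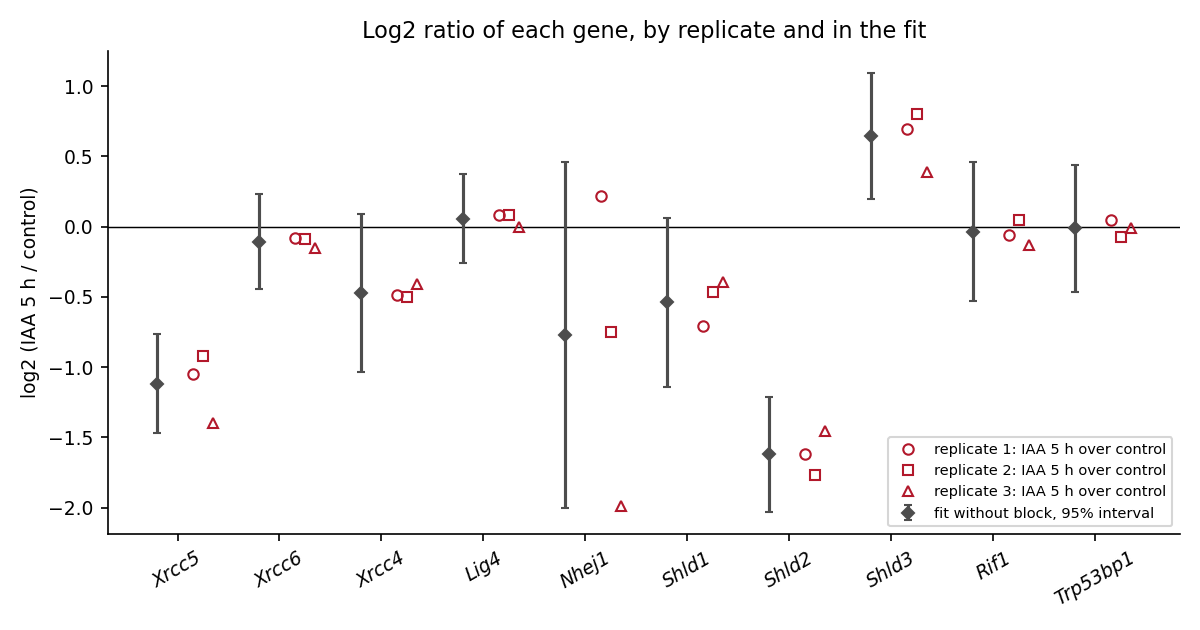
Log2 ratio of IAA 5 h over control for the 10 genes: red symbols give each replicate number, from log2 CPM with a prior count of 2, and grey diamonds the edgeR fit without the block with its 95% interval. Xrcc5 and Shld2 lie far below 0 in all 3 pairs, Shld3 above 0, while the pairs of Nhej1 spread from 0.22 to -1.99.

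The log2 fold changes of the shieldin genes also differed in sign and size, but only that of Shld2 was called without the block. Shld2 (chromosome 14, 34236948 to 34310651) stood at 15.2, 17.02 and 18.4 CPM after IAA, against 46.9, 58.3 and 50.6 CPM in controls, from 272 to 373 counts and 934 to 1232 counts. The groups were widely separated, at 16.9 ± 1.60 CPM after IAA and 51.9 ± 5.81 CPM in controls (SD, n = 3 each), with a log2 fold change of -1.62 (SE 0.18, edgeR adjusted p = 0.0300, or 2.7e-05 with the block). The pseudogene Gm18813 inside its interval was at 0 in all libraries. Shld1, the small subunit that binds the carboxy-terminal part of SHLD2 (chromosome 2, 132686931 to 132751055), stood at 6.83, 6.84 and 6.16 CPM after IAA, against 11.2, 9.50 and 8.12 CPM in controls. Its IAA libraries all lay below the controls, but the log2 fold change of -0.54 was not called (SE 0.27, edgeR adjusted p = 0.520, or 0.160 with the block). The RefSeq interval of Shld1 also holds the lncRNA genes Gm38455 and Gm52525, a pseudogene and a small nuclear RNA gene. Mad2l2, for the remaining subunit REV7 (its interval overlaps Draxin), had a log2 fold change of 0.24 with a wide interval (-0.45 to 0.94).

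Shld3 (chromosome 13, 104173721 to 104178459) stood at 28.8, 32.2 and 23.0 CPM after IAA, against 17.7, 18.4 and 17.6 CPM in controls. All 3 IAA libraries lay above the narrow range of the controls. Without the block this gave a log2 fold change of 0.65 (SE 0.20) with an edgeR adjusted p = 0.241, and with it one of 0.63 (SE 0.16) with an edgeR adjusted p = 0.0182. The paired call was lost without pair 1 (adjusted p = 0.085) or pair 2 (adjusted p = 0.0945) and held without pair 3 (adjusted p = 0.0427). Within libraries, the count ratio of Shld2 to Shld3 was 0.529, 0.529 and 0.800 after IAA, against 2.64, 3.17 and 2.87 in controls, so the balance of these subunits' RNA differed between all IAA and all control libraries.

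The whole Shld3 interval of 4.74 kb lies inside Trappc13, a gene of the TRAPP vesicle-tethering complex (chromosome 13, 104142153 to 104178466). Both are on the minus strand, and their RefSeq starts are 7 bases apart, so that Shld3 covers the first stretch of the longer gene. Trappc13 stood at 29.4, 26.3 and 29.4 CPM after IAA, against 52.2, 52.6 and 54.1 CPM in controls. Trappc13 thus fell to 28.4 ± 1.77 CPM in IAA cells, against 52.98 ± 1.01 CPM in controls (SD, n = 3 each), with a log2 fold change of -0.90 (SE 0.16, edgeR adjusted p = 0.0438, or 4.6e-04 with the block), the opposite sign to Shld3. Without the block its call too was lost when any 1 library was left out (adjusted p between 0.0909 and 0.217). The count ratio of Shld3 to Trappc13 was 0.979, 1.22 and 0.783 after IAA, against 0.340, 0.349 and 0.325 in controls. The sum of both was 56.4 ± 3.44 CPM after IAA and 70.9 ± 0.909 CPM in controls. Reads from exons that both genes may share cannot be assigned from this table, so the value of Shld3 also depends on how the authors' counting divided them, and its part in the result was not tested.

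**Figure D3:**
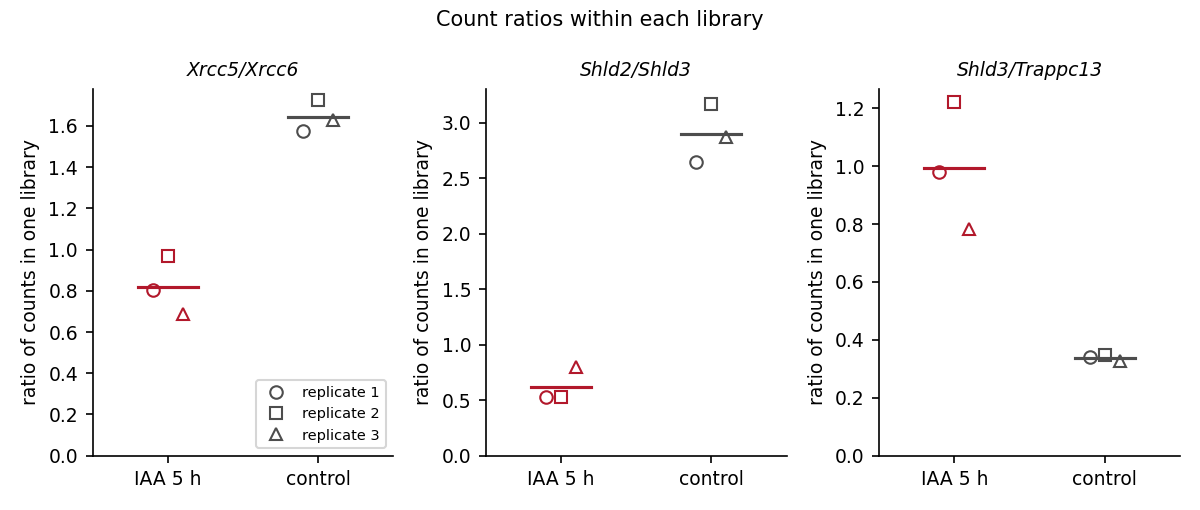
Count ratios of Xrcc5 to Xrcc6, Shld2 to Shld3 and Shld3 to Trappc13 in each library (linear axes from 0), with IAA 5 h left of control, marker shapes for replicate numbers and bars for means of 3 libraries. The first 2 ratios lie lower and the last higher in every IAA library than in any control.

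The start regions of the genes that moved are shown because Shld2 and Shld3 each begin beside another gene. All 4 windows are from RefSeq (GRCm38.p6), run 5′ to 3′ on the gene's own strand and hold 250 bases before and 50 after an annotated start. Capitals mark TGCGCATGC, letters found in the windows of both Xrcc5 and Shld2 when these were read, and searched on both strands. The Lig4 window also holds their reverse complement GCATGCGCA, which overlaps the capitals and is not marked in full.
Shld2, chr14:34310468-34310767, minus strand: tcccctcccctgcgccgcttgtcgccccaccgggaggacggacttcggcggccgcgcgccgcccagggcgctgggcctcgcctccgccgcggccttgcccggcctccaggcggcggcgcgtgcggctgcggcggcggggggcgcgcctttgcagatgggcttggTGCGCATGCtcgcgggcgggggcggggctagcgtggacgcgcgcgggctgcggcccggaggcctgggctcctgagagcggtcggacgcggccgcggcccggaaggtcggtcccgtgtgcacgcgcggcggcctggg
Xrcc5, chr1:72307171-72307470, plus strand: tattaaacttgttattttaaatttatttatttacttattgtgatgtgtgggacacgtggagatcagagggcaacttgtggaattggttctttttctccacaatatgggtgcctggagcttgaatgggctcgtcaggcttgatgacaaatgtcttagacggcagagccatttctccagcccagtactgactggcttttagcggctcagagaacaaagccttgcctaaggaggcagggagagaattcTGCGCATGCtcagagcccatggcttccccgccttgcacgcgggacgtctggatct
Lig4, chr8:9977631-9977930, minus strand: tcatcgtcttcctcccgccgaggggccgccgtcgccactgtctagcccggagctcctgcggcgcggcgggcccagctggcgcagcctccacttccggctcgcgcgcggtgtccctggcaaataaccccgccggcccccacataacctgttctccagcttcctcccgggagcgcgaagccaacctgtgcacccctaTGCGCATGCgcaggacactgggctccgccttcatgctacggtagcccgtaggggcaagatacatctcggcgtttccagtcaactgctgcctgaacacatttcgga
Shld3, chr13:104178410-104178709, minus strand: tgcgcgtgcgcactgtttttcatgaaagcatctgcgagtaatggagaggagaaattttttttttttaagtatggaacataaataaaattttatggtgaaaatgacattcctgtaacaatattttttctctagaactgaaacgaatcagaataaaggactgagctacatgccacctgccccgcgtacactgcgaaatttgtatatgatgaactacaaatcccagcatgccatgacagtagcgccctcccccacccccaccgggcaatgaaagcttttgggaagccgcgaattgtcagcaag
The table of windows held 12 windows for 9 of the 10 genes, with no entry for Rif1, and 3 of these 12 held the letters. Of all 32851 windows, 499 (1.52%) held them. The matches of Xrcc5 and Shld2 were fixed by the choice of letters, so the members' share cannot be set against that of all windows. Counted from the annotated start that the window is built on, the marked match lay 86 bases upstream for Shld2, 5 for Xrcc5 and 55 for Lig4. That start is 134 bases inside the RefSeq interval of Shld2 and 4 bases inside that of Xrcc5, so the Shld2 match falls within the gene's interval. Lig4, shown for this reason, was not called in either fit. Another Lig4 window, chr8:9976262-9976561, held 0 matches, and which Lig4 start these cells use was not tested. Any part of the letters in the results was not tested.

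Genes that start beside the members had values of their own. Glud1, the mitochondrial glutamate dehydrogenase gene, lies on the opposite strand. Its interval begins 76 bases from the edge of the Shld2 interval, the starts of the 2 windows are 210 bases apart, and the windows share 291 bases. The letters marked in the Shld2 window lie within these shared bases. Glud1 stood at 237, 264 and 222 CPM after IAA, against 253, 244 and 219.9 CPM in controls. The Glud1 groups overlapped, with a log2 fold change of 0.01 (95% interval -0.30 to 0.32), while Shld2 was at -1.62. Tmem167 starts 59 bases from Xrcc4 and Abhd13 37 bases from Lig4, each on the opposite strand, and neither was called in either fit (log2 fold changes -0.10 and 0.25). The letters marked in the Lig4 window lie within bases that it shares with the Abhd13 window. Trim23, a ubiquitin ligase gene that starts 380 bases from Shld3 on the opposite strand, had a log2 fold change of -0.48 (edgeR adjusted p = 0.444, or 0.00397 with the block).

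The genes upstream of shieldin passed the test in neither fit. Trp53bp1 (chromosome 2, 121194835 to 121296354) stood at 148, 159 and 110.0 CPM after IAA, against 143, 167 and 111 CPM in controls. The order of the replicates was the same in both groups, and the log2 fold change was -0.01 (95% interval -0.47 to 0.44 without the block and -0.18 to 0.16 with it). Its interval overlaps Tubgcp4 and Map1a at its ends, though an annotated start at 121271407 leaves Map1a (from 121289590) outside. Rif1 (chromosome 2, 52072815 to 52126769), which also acts in replication timing, stood at 1320, 2055 and 1336 CPM after IAA, against 1379, 1987 and 1466 CPM in controls. Replicate 2 was the highest in both groups, so the spread of Rif1 followed the replicate number and not the treatment. Its log2 fold change was -0.04 (95% interval -0.53 to 0.46) without the block and -0.05 (-0.19 to 0.09) with it. Differences of Rif1 and Trp53bp1 within these intervals were not detectable at this spread.

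Shares of genes called lower differed between classes of gene length. Without the block they were 0.198% of 5040 genes under 10 kb, 1.12% of 4650 genes of 10 to 30 kb, 1.53% of 3865 genes of 30 to 100 kb and 0.518% of 1738 genes of 100 kb and more. With the block the same classes had 2.42%, 9.31%, 13.9% and 12.6%. The share was thus lower in the longest class than in the class before it in both fits. Shld2 spans 73.7 kb and Xrcc5 87.5 kb, in the class of 30 to 100 kb. Shld1 (64.1 kb), Rif1 (54.0 kb) and Xrcc6 (52.3 kb), which were not called, are in the same class. The class median log2 fold change was -0.07, and that of the shortest class, with Lig4 (7.66 kb) and Shld3 (4.74 kb), was 0.14. Xrcc4 (241 kb), Nhej1 (158 kb) and Trp53bp1 (102 kb) are in the class of 100 kb and more, with a median of -0.12. The 8 members with intervals of 30 kb or more thus ran from -1.62 to -0.01, and the 2 short ones were at 0.06 and 0.65. The part of gene length in these values was not tested. These lengths are those of whole RefSeq intervals. The annotated start that the window is built on lies 28536 bases inside the interval of Xrcc6 and 24947 bases inside that of Trp53bp1. Counted from those starts, both genes would be shorter than given here, and each would fall in the next shorter class. The classes given above use the whole intervals.

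**Figure D4:**
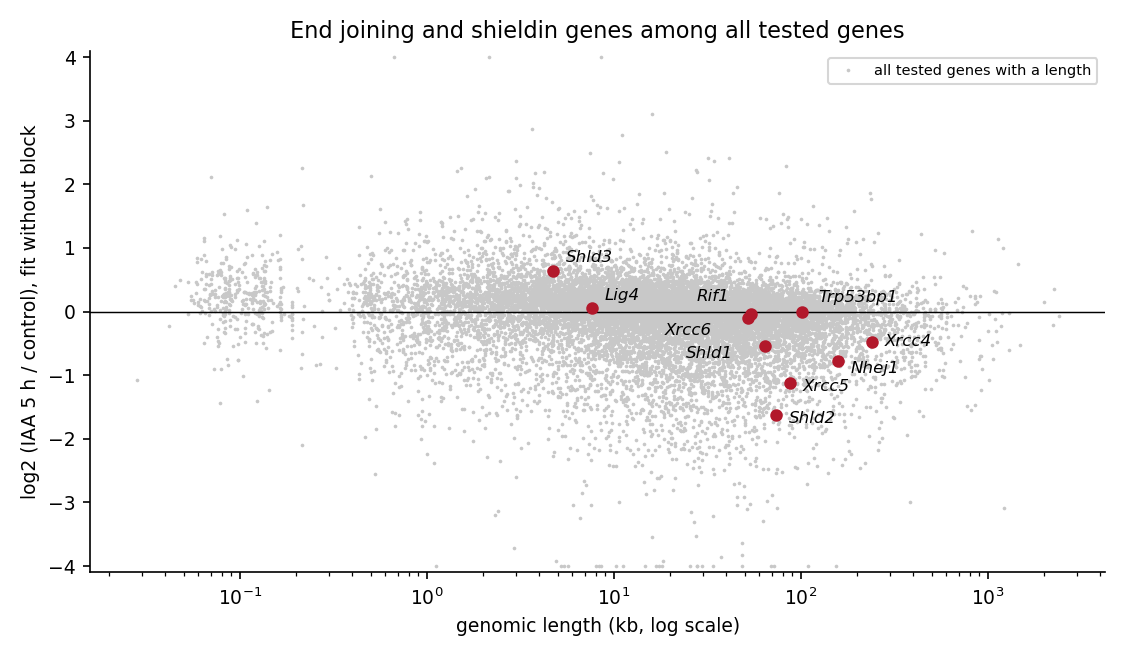
Log2 fold change (IAA 5 h over control, edgeR fit without the block) against genomic length on a log axis for all tested genes with a RefSeq length (grey) and the 10 genes described (red). Values beyond 4 in either direction are drawn at 4 or -4, and Shld2 and Xrcc5 lie low among genes of their length while Rif1 and Xrcc6 lie near 0.

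Other genes of the pathway were read from 2 lists chosen by function. Of 16 further end joining genes, 15 were tested, since Dntt, for the polymerase that adds bases at antigen receptor joins, was at 0 in all libraries. None of the 15 was called without the block (edgeR, 3 at an unadjusted p under 0.05, where 10.9% of all genes were). DESeq2 called 1 of them lower (3.29% of all genes), and with the block 3 were lower and 0 higher (7.90% and 4.96% of all genes). Wrn, for a RecQ helicase and exonuclease that interacts with Ku (chromosome 8, 33234372 to 33385543), stood at 13.3, 15.8 and 9.55 CPM after IAA, against 31.0, 41.9 and 25.8 CPM in controls. No IAA library of Wrn reached a control, and the log2 fold change of -1.35 lay between those of Xrcc5 and Shld2 (edgeR adjusted p = 0.0639 without the block and 1.7e-04 with it). Wrn was also the gene that DESeq2 called. Prkdc, for DNA-PKcs, stood at 103, 111 and 99.4 CPM after IAA, against 129, 192 and 132 CPM in controls (log2 fold change -0.51 with the block, edgeR adjusted p = 0.00536). Poll, for the gap-filling DNA polymerase lambda, stood at 10.7, 6.66 and 10.02 CPM after IAA, against 14.0, 14.6 and 16.6 CPM in controls (log2 fold change -0.74 with the block, edgeR adjusted p = 0.0366). The Poll call was lost without pair 2 (adjusted p = 0.177) or pair 3 (adjusted p = 0.156). The median log2 fold change of the 15 was -0.16 without the block and -0.09 with it, and that of all tested genes was 0.02 in both fits.

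Of 27 genes that act around 53BP1, RIF1 and shieldin, all were tested, none was called without the block (edgeR, 2 at an unadjusted p under 0.05, against 10.9% of all genes). DESeq2 called 0 of them (3.29% of all genes lower and 0.353% higher), but gave no adjusted p for Pagr1a. With the block, 2 of the 27 were lower and 2 higher, against 7.90% and 4.96% of all genes. Their median log2 fold change was 0.05 in both fits. Rnf168, for the ubiquitin ligase whose histone mark 53BP1 reads, stood at 75.4, 86.8 and 74.9 CPM after IAA, against 102, 126 and 112 CPM in controls. Each IAA library of Rnf168 lay below each control, with a log2 fold change of -0.52 (edgeR adjusted p = 0.00215 with the block). H2ax, for the histone variant phosphorylated at breaks, stood at 205, 149 and 205 CPM after IAA, against 188, 90.4 and 139 CPM in controls, and Dynll1, for a dynein light chain that binds 53BP1, stood at 199, 117 and 151 CPM, against 146, 77.9 and 135 CPM. The groups overlapped for both of these genes, whose log2 fold changes with the block were 0.47 (edgeR adjusted p = 0.0118) and 0.40 (edgeR adjusted p = 0.0143). Neither call held in all 3 omissions of a pair: H2ax was lost without pair 2 (0.0722) or pair 3 (0.0903), and Dynll1 without pair 1 (0.0843) or pair 2 (0.074). Pagr1a, for a partner of PTIP, stood at 1.29, 0.411 and 0.948 CPM after IAA, against 21.6, 1.31 and 1.25 CPM in controls. Its fall (edgeR adjusted p = 0.0444 with the block) thus rested on the high level of control replicate 1, and was lost without pair 1 (adjusted p = 0.674) or pair 2 (adjusted p = 0.262).

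**Figure D5:**
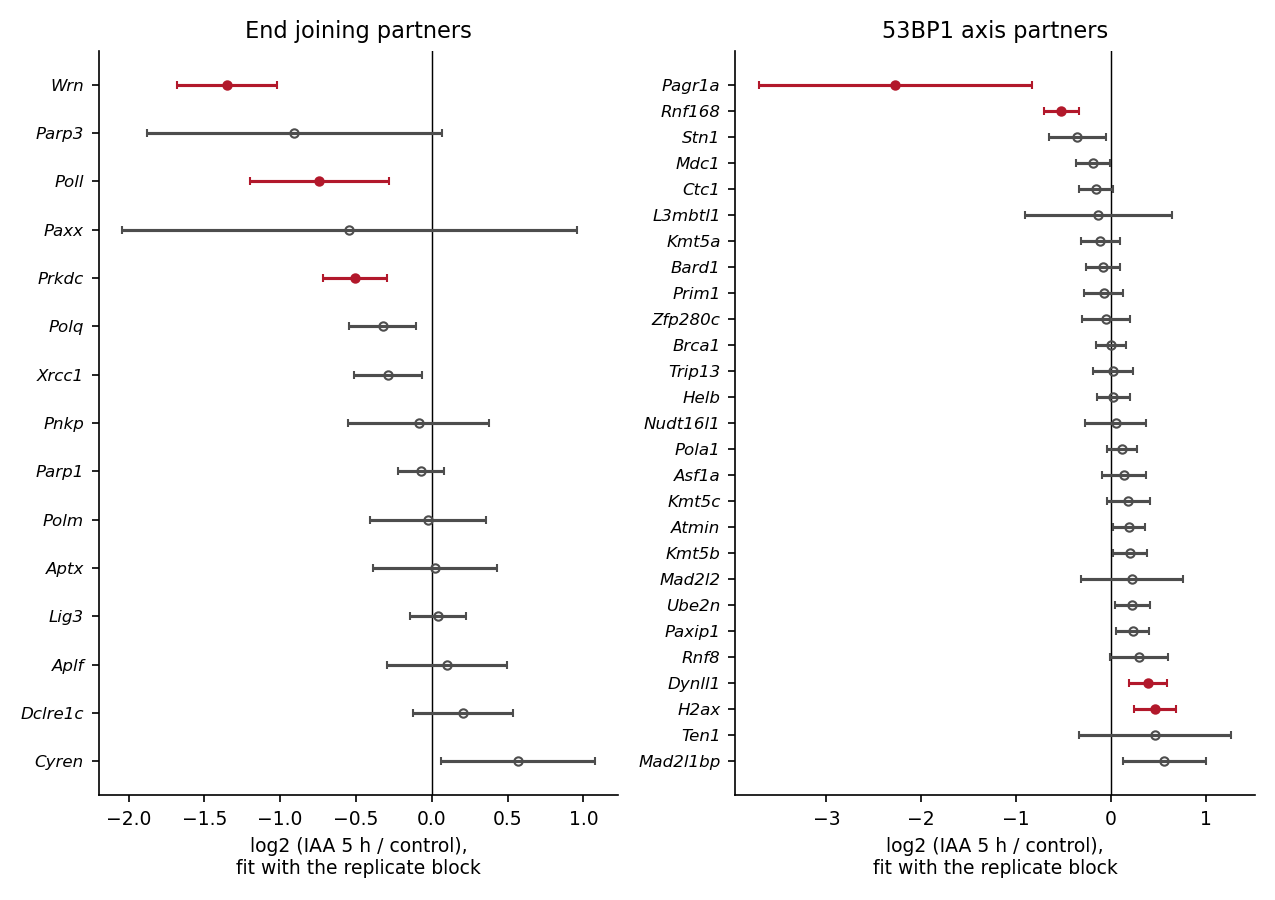
Log2 fold change (IAA 5 h over control, edgeR fit with the replicate block) with 95% intervals for 15 further end joining genes (left) and 27 further genes around 53BP1 and shieldin (right). Filled red points passed the adjusted threshold, with Wrn, Poll, Prkdc, Pagr1a and Rnf168 lower and H2ax and Dynll1 higher.

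Among 9545 other tested genes with a mean of 10 CPM or more, those whose pattern over the 6 libraries was closest to Shld2 were Acad11, 4930447C04Rik and Rpgrip1l. Likeness was the Euclidean distance of log2 CPM centred on each gene's mean, and was 0.301, 0.361 and 0.376 for these genes, against a median of 2.15. Acad11, for a mitochondrial acyl-CoA dehydrogenase, stood at 10.4, 13.1 and 13.6 CPM after IAA, against 31.0, 34.9 and 32.4 CPM in controls. Its log2 fold change was -1.41, and no IAA library reached a control. A pattern like that of Shld2 was set by how Acad11 was chosen, so these values only describe it.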

How the data were processed

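Per the labels' protocols, RNA labelled with 4sU was biotinylated and pulled down on streptavidin before library construction (Vazyme). The deposited table holds estimated counts per gene as whole numbers. The mm10 build, StringTie 2.2.1, HISAT2 2.2.1 and DESeq2 1.42.0 are named without a role, per the submitters' processing notes. Strandedness, spike-ins and pulse length were not found in those sources, so reads of overlapping and antisense genes cannot be told apart. Without spike-ins, fold changes are relative to the other genes, and a change common to all labelled RNA would not be seen.

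In R 4.3.3 with edgeR 4.0.16, filterByExpr kept 17573 genes, TMM scaled the libraries, and the quasi-likelihood test compared IAA with control, adjusted over all genes (threshold 0.05). DESeq2 1.42.0 was an alternative. The scripts were tested on simulated counts. The SE is the fold change divided by the root of F. Replicate numbers were taken to pair the libraries, because deviations from group means correlated at 0.268 to 0.387 for equal numbers. Deviations within a group cancel out, so the negative values for other numbers (-0.265 to -0.025) largely follow from this and are not separate support. The labels do not say what a number stands for, and replicates may be technical. Genes and lists were chosen with earlier results of these data known. All 10 genes, Zfp207, overlapping or adjacent genes, Prkdc, Mad2l2 and each further pathway gene past the threshold in either fit are named. Coordinates, lengths and windows are RefSeq's (GRCm38.p6), matched by symbol.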

Additional observations from a re-analysis of the deposited data

How the results depend on the processing

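Without any 1 library, the unpaired edgeR fit called 0 of the 10 genes lower (range 0 to 0), with adjusted p of 0.0521 to 0.153 for Xrcc5 and 0.0521 to 0.151 for Shld2, although their log2 fold changes stayed at -1.20 to -1.04 and -1.69 to -1.53. Fewer samples enter each such fit, and over all genes it then called at most 1 lower and 1 higher. RLE or upper-quartile scaling, DESeq2, no filter on low counts, the replicate block and its 3 omissions of a pair each called both genes lower. With the block, 1 of the 10 was higher (Shld3, log2 fold change 0.63), also without pair 3 (1, 0.74), and 0 without pair 1 or pair 2. The median of the 10 was between -0.42 and -0.26 over the omissions of a library, lowest without IAA replicate 2. Of the further pathway genes, 5 were lower and 2 higher with the block, 3 to 4 lower and 0 to 1 higher without a pair, and 1 lower with DESeq2 or with no filter, against 0 in the unpaired fit. Rif1 and Trp53bp1, uncalled throughout, changed sign, with the cause not tested. Rif1 ranged from -0.28 to 0.14 without 1 library. Trp53bp1 ranged from -0.17 to 0.13 without 1 library, and was at 0.0013 with RLE scaling, 0.0013 with DESeq2 and 0.0198 with the block without pair 2. The replicate block changed no call of the 10 genes other than that of Shld3. All other settings kept direction and call for the 10 genes. Over all genes, the unpaired fit called 137 lower and 2 higher and the block 1388 and 871. Low counts limit Nhej1.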
